A study of Bos taurus with 6 samples.

Results

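The genes described here belong to the families SRSF, HNRNP and RBM, which encode RNA-binding proteins that steer pre-mRNA splicing, in the testis of Wandong cattle (Bos taurus). Members were the entries of the gene table whose symbol begins with SRSF and a digit, with HNRNP, or with RBM and a digit or X. This rule found 70 of the 47249 genes, namely 11 SRSF, 19 HNRNP and 40 RBM genes. The rule used symbols alone and no measured value. The study sampled untreated testis tissue from 3 immature calves, 3 months old, and from 3 andrologically mature bulls, 3 years old, to learn how the testis transcriptome differs between the stages. Each animal gave 1 strand-specific library of total RNA after removal of ribosomal RNA, and a library is called by its group and sample number, as in calf 1 or bull 3. Levels are FPKM, the number of sequenced fragments of a gene scaled by its length and by the total of the library, so that levels of different genes can be compared.

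Splicing removes introns from pre-mRNA, and the choice of exons is set by proteins that bind the transcript beside the spliceosome. SR proteins (genes SRSF) carry a domain rich in serine and arginine, bind exonic enhancers and mostly promote the inclusion of exons. The hnRNP proteins (genes HNRNP) coat nascent transcripts and often oppose SR proteins. RBM genes are a mixed group, named for an RNA-binding motif, that includes splicing regulators, spliceosome components and germ cell proteins. The testis is known for a high rate of alternative splicing, and the X chromosome is transcriptionally silent in male germ cells during meiosis.

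The labels of the 6 libraries were checked against cell type markers. Summed over the 12 listed spermatid markers, the level was 14600 to 16400 FPKM in the bulls, 12.7 to 14.8 in calf 1 and calf 2 and 10.04 in calf 3. The 10 spermatocyte markers summed to 384 to 469 in the bulls, 22.3 to 29.7 in calf 1 and calf 2 and 3.75 in calf 3, and all 10 were above every calf in every bull. Calf 3 stood apart from its label. The 12 brain markers summed to 14200 FPKM in calf 3 against 11.99 to 18.7 in the bulls and 13.1 in each other calf, and 11 of the 12 were highest in calf 3. The 7 Leydig cell markers summed to 0.502 in calf 3, 1110 to 1410 in the other calves and 1460 to 2620 in the bulls, and the 10 Sertoli cell markers to 443, 2700 to 2820 and 387 to 406. CLU, which other cell types also express, made up 423 of the 443 in calf 3, and the other 9 Sertoli cell markers summed to 20.4 there, to 1477 and 1798 in the other calves and to 129 to 160 in the bulls. In calf 3 the testis genes FSHR, WT1, GATA4, CYP11A1, CYP17A1, NR5A1 and TEX101 were listed at 0. Over the genes tested, the log2 levels of calf 3 correlated with calf 1 and calf 2 at r = 0.76 and r = 0.77, while calf 1 and calf 2 correlated at r = 0.98. Calls and fold changes are therefore given with all 6 libraries and again without calf 3. The remaining lists differed less, with summed levels in calf 1 and calf 2, calf 3 and the bulls of 113 to 147, 284 and 134 to 146 for spermatogonia, 35.1 to 47.2, 14.7 and 60.3 to 69.9 for peritubular myoid cells, and 8.91 to 22.3, 33.3 and 10.7 to 15.3 for endothelium. Of the 8 spermatogonia markers, 4 were highest in calf 3 and 4 lay there below calf 1 and calf 2. UCHL1 made up 201 of the 284 in calf 3, while DMRT1 was at 0.0938 there and at 44.9 and 68.9 in the other calves. For macrophages the sums were 69.6 to 96.6, 42.0 and 60.8 to 70.3, for red blood cells 1.96 to 1.98, 4.75 and 1.78 to 3.00, and for skeletal muscle 2.55 to 3.39, 0.892 and 0.511 to 1.17. In whole tissue, fewer cells of a type and less RNA per cell cannot be told apart. What part the germ cell content of the bulls has in the values below was not tested.

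A few members differed strongly between the stages while most did not. Germ cell genes of the RBM family (RBMXL2, RBM44, RBM46), SRSF12, RBM4B and RBM47 were higher in bulls, and HNRNPA1, RBMX and 4 members placed on the X chromosome were lower. A member was called when its limma adjusted p was below 0.05 and log2(FPKM + 1) differed by 1 or more between the group means. Of the 70 members, 69 reached 1 FPKM in at least 3 libraries and were tested, and RBM12B was listed at 0 in every library. With all 6 libraries, 12 members were called higher in bulls and 7 lower, while 50 were not called. Over all 18115 genes tested, 35.7% were called higher and 9.61% lower. Without calf 3, 10 members were called higher and 10 lower, against 37.9% and 13.6% of all genes. The same call was made in both fits for 10 higher and 7 lower members, and 47 members were called in neither. The split between directions moved with the scaling of the libraries, with 7 members higher and 24 lower after quantile normalization (21.1% and 25.1% of all genes), 6 and 26 after it without calf 3 (22.4% and 29.1%), and 18 higher and 6 lower after rescaling to a common sum (39% and 6.17%).

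The median log2 fold change of the members was 0.02 with all 6 libraries and -0.14 without calf 3, beside a median over all genes of 0.43 in each fit. Quantile normalization moved the median over all genes to -0.26 and that of the members to -0.63, so the members lay 0.40 below all genes before it and 0.37 below after it, and 0.57 below without calf 3. When genes of low level were kept as well, the median over all 44657 genes was 0.12, and the members lay 0.096 below it. In 22 members all bulls were above all calves (46.1% of all genes), and in 24 all bulls were below all calves (21.3% of all genes). Without calf 3 the counts were 23 (53.5%) and 31 (30.9%). The plot of fold changes shows this spread by family.

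**Figure D1:**
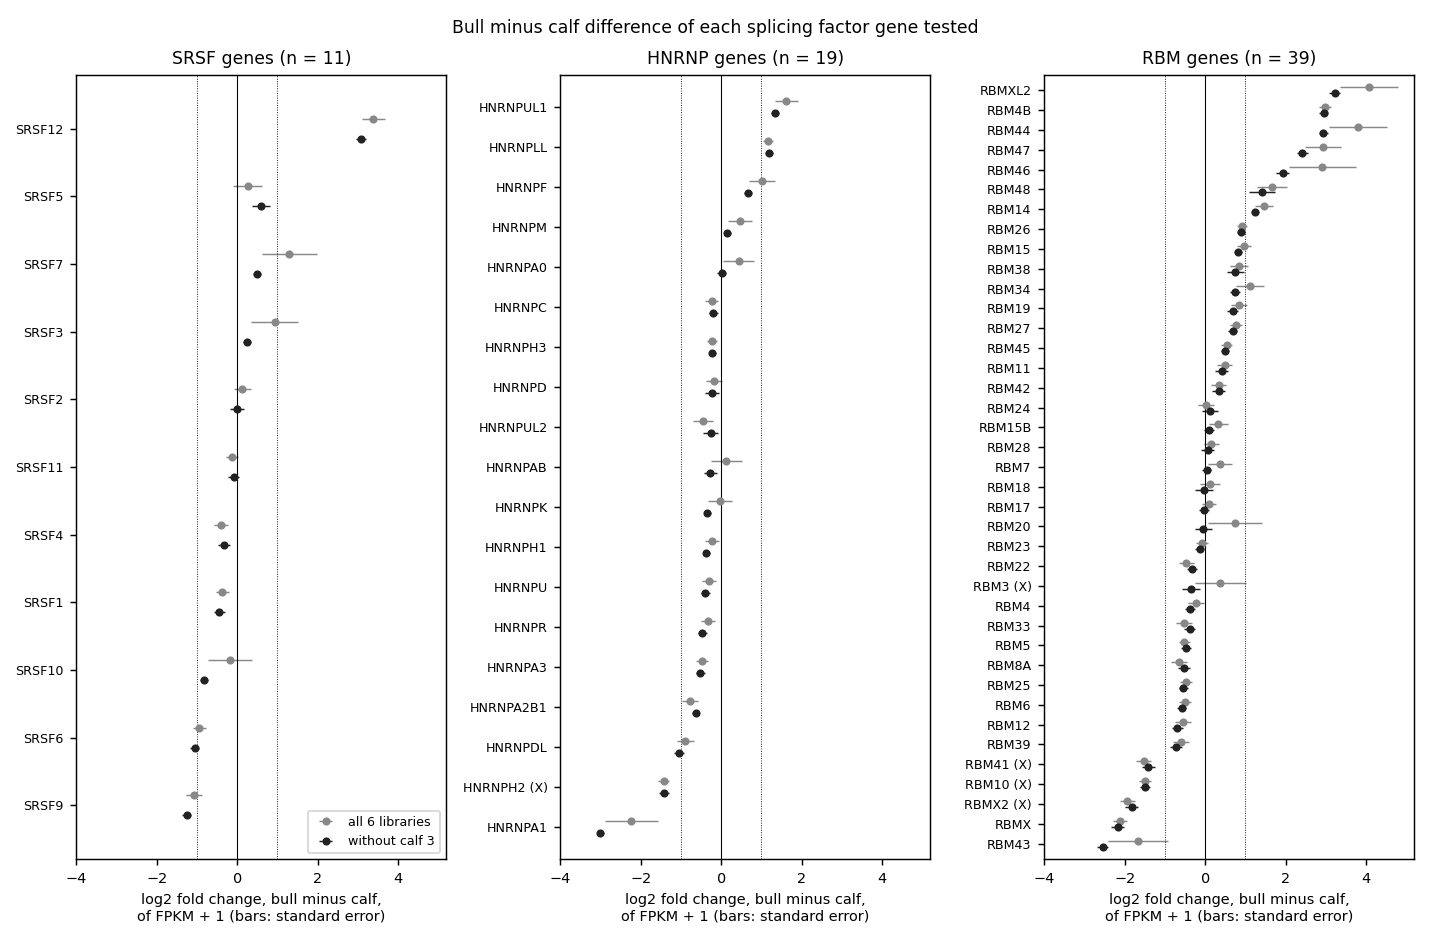
Log2 fold change of FPKM + 1, bull minus calf (x axis), of the 69 members tested, by family and ordered by the value without calf 3; grey points use all 6 libraries, black points leave out calf 3, bars are standard errors and dotted lines mark a change of 1. Most genes lie between the dotted lines, RBMXL2 and SRSF12 lie above 3 in both fits, and HNRNPA1 has the lowest value of its family in both; after quantile normalization 24 members in place of 7 were called lower.

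Among the SR proteins 1 gene was called higher with all 6 libraries and 1 lower. SRSF12 (9:60998317-61021962), a relative of SRSF10 that antagonizes other SR proteins, was at 5.12, 5.77 and 2.39 FPKM in calves 1 to 3 and at 50.99, 51.2 and 57.8 in bulls 1 to 3. All bulls were far above all calves. Its log2 fold change was 3.38 (SE 0.29, adjusted p = 0.000184), and 3.07 (SE 0.11) without calf 3. The SRSF12 entry lies within that of PNRC1, which was at 27.3, 29.6 and 14.5 in the calves and 17.7, 9.32 and 18.0 in the bulls. SRSF9, a small SR protein related to SRSF1, was at 48.9, 54.6 and 35.3 FPKM in the calves and 20.1, 21.3 and 21.6 in the bulls. The bulls were below every calf, with a log2 fold change of -1.08 (SE 0.20, adjusted p = 0.00436), and of -1.26 (SE 0.10) without calf 3. Leaving out calf 2 gave -0.95 and rescaling to a common sum -0.88, and neither was a call. SRSF6, which promotes exon inclusion, was at 64.2, 60.9 and 48.7 in the calves and 27.0, 32.0 and 29.7 in the bulls, and its log2 fold change of -0.94 with all libraries became a call at -1.06 (SE 0.11, adjusted p = 0.00023) without calf 3.

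The other 8 SR protein genes were called in neither fit. SRSF3, the smallest SR protein, was at 84.6 and 95.1 FPKM in calf 1 and calf 2, at 20.8 in calf 3 and at 106, 114 and 99.1 in the bulls. SRSF7, its close relative, was at 46.5, 47.4 and 7.79 in the calves and 66.5, 70.6 and 61.2 in the bulls. Calf 3 was far below the other calves in both genes, and the log2 fold changes were 0.93 and 1.298 with it and 0.24 and 0.48 without it. SRSF10, a splicing repressor when dephosphorylated, was at 64.8, 64.1 and 15.9 in the calves and 33.4, 39.0 and 35.4 in the bulls, so that calf 3 lay below the bulls and the other calves above them. Its log2 fold change was -0.18 (SE 0.55) with all libraries and -0.83 (SE 0.10, adjusted p = 0.000552) without calf 3. SRSF1, the founding member of the family, was at 67.1, 67.6 and 58.0 in the calves and 44.0, 56.6 and 48.1 in the bulls, and SRSF4 at 6.25, 7.28 and 8.17 and 5.12, 4.77 and 5.60. Both were lower in every bull than in every calf by less than the fold required, at -0.37 and -0.41, or -0.44 and -0.33 without calf 3. After quantile normalization SRSF1 was called lower, at -1.17. SRSF2, which acts in exon definition, was at 67.5, 97.0 and 60.8 in the calves and 77.9, 76.2 and 87.6 in the bulls. SRSF5 was at 17.0, 29.9 and 46.3 and at 32.2, 37.3 and 34.5, and SRSF11 at 18.9, 22.7 and 22.5 and at 17.9, 20.5 and 19.9. The groups overlapped in these 3 genes, and without calf 3 their log2 fold changes were -0.01, 0.59 and -0.09.

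Summed over the family, SRSF genes stood at 491, 552 and 327 FPKM in calves 1 to 3 and at 481, 524 and 500 in bulls 1 to 3. On this scale the bulls lay within the range of calf 1 and calf 2 or just below it, although SRSF12 alone took over 50 FPKM of the sum in each bull. The sums were not rescaled to the library totals. These totals were 1066180 and 1098720 FPKM in calf 1 and calf 2 and 732130 to 776839 in the bulls. All members together made up 0.313% and 0.322% of them in calf 1 and calf 2 and 0.354% to 0.370% in the bulls.

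In the HNRNP family 3 genes were called higher and 2 lower with all 6 libraries. HNRNPA1 (5:25779619-25785642), a repressor of exon inclusion and the classical antagonist of SRSF1, was at 881 and 804 FPKM in calf 1 and calf 2, at 169 in calf 3 and at 104, 105 and 104 in the bulls. It was by far the most abundant member in calf 1 and calf 2 and the 7th in the bulls, and calf 3 lay nearer to the bulls than to its group. The log2 fold change was -2.23 (SE 0.66, adjusted p = 0.0288) with all 6 libraries and -3.00 (SE 0.10, adjusted p = 2.22e-06) without calf 3, where the bull mean was 0.124 times that of the calves. Leaving out calf 1, calf 2 or any 1 bull, with calf 3 kept, ended the call at log2 fold changes from -2.24 to -1.81. HNRNPA1 has many processed copies in mammalian genomes, and how the reads of such copies were assigned is not known here. HNRNPH2 (X:50797768-50803589), which binds runs of guanines, was at 23.8, 28.2 and 26.4 in the calves and 8.94, 9.25 and 8.99 in the bulls. Its groups were far apart with small spread, and the log2 fold change was -1.43 (SE 0.14, adjusted p = 0.000315), and -1.42 without calf 3. HNRNPDL, a relative of HNRNPD, was at 99.7, 117 and 76.3 in the calves and 49.3, 57.0 and 48.0 in the bulls, and was called only without calf 3, at -1.06 (SE 0.12) against -0.89 with it.

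HNRNPUL1 (18:50440559-50474318), an RNA-binding protein related to HNRNPU with a role in the DNA damage response, was at 55.7, 60.1 and 31.4 FPKM in the calves and 148, 158 and 137 in the bulls. It went from rank 19 among the members in calf 1 and calf 2 to rank 3 in the bulls. The log2 fold change was 1.62 (SE 0.28, adjusted p = 0.0034), and 1.33 (SE 0.10) without calf 3. HNRNPLL, known for the exon choice of CD45 in lymphocytes, was at 17.3, 17.3 and 17.9 in the calves and 39.1, 43.6 and 38.9 in the bulls, with a log2 fold change of 1.17 (SE 0.13, adjusted p = 0.000574), and of 1.18 without calf 3. After quantile normalization neither was called, at 0.89 for HNRNPUL1 and 0.43 for HNRNPLL. HNRNPF, a relative of HNRNPH1, was at 112, 130 and 58.5 in the calves and 189, 199 and 188 in the bulls, which made it the most abundant member in the bulls. It was called at 1.01 (SE 0.33, adjusted p = 0.04) with all libraries and not without calf 3, at 0.66 (SE 0.11), nor without calf 1 or any 1 bull, at 0.98 to 1.13.

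Several other abundant hnRNP genes were called in neither fit. HNRNPA2B1, which takes part in splicing and mRNA transport, was at 165, 162 and 223 FPKM in the calves and 101, 103 and 111 in the bulls. HNRNPC, which binds uridine tracts, was at 80.8, 74.0 and 84.2 and at 70.3, 70.9 and 60.8. HNRNPU, a nuclear scaffold protein, was at 116, 137 and 103 and at 98.9, 98.6 and 90.2. In all 3 every bull was below every calf, with log2 fold changes of -0.78, -0.24 and -0.30, and of -0.64, -0.20 and -0.39 without calf 3. After quantile normalization HNRNPA2B1 (-1.48) and HNRNPC (-1.02) were called lower. HNRNPH1 was at 128, 134 and 97.98 in the calves and 99.5, 101 and 103 in the bulls. HNRNPK, which binds cytidine-rich RNA, was at 195, 219 and 108 and at 162, 166 and 161, with calf 3 below the bulls and the other calves above. HNRNPM was at 86.8, 95.9 and 46.6 and at 102, 104 and 97.9. The log2 fold changes of these 3 were -0.23, -0.03 and 0.47, and -0.37, -0.34 and 0.15 without calf 3. Of the other HNRNP genes, HNRNPA0, HNRNPA3, HNRNPAB, HNRNPD, HNRNPH3, HNRNPR and HNRNPUL2 were called in neither fit, with log2 fold changes from -0.47 for HNRNPA3 to 0.43 for HNRNPA0, or -0.52 and 0.01 without calf 3. After quantile normalization HNRNPA3, HNRNPR and HNRNPUL2 were called lower, at -1.23, -1.09 and -1.17.

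The summed HNRNP level was 2224, 2311 and 1281 FPKM in calves 1 to 3 and 1408, 1454 and 1383 in bulls 1 to 3. Without HNRNPA1 the sums were 1343, 1508 and 1113 in the calves and 1304, 1349 and 1279 in the bulls. The gap between calf 1 and calf 2 on one side and the bulls on the other was thus mostly that of a single gene. This holds for FPKM as listed, with library totals that differed as given above.

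The RBM family, with 39 of the 69 members tested, held 8 of the 12 called higher and 4 of the 7 called lower, or 7 and 5 of 10 each without calf 3. RBMXL2, RBM44 and RBM46, which are known from germ cells, were among the higher ones. RBMXL2 (15:45651978-45662680), a retroposed copy of RBMX that is expressed in meiotic germ cells, was at 4.49 and 5.44 FPKM in calf 1 and calf 2, was listed at 0 in calf 3, and was at 58.2, 57.3 and 48.4 in the bulls. The bull mean was 11.002 times the mean of calf 1 and calf 2. Its log2 fold change was 4.08 (SE 0.72, adjusted p = 0.00385) with all libraries and 3.22 (SE 0.13, adjusted p = 6.13e-06) without calf 3. RBM44 (3:117246496-117266624), a protein of the bridges that join germ cells, was at 5.42, 5.03 and 0.0527 in the calves and 44.4, 52.1 and 44.0 in the bulls, with a log2 fold change of 3.79 (SE 0.72) and of 2.94 (SE 0.12) without calf 3. RBM46 (17:2540688-2599522), which germ cells need to enter and pass meiosis, was at 5.95, 7.96 and 0.0234 in the calves and 28.3, 33.1 and 26.4 in the bulls, with a log2 fold change of 2.92 (SE 0.82, adjusted p = 0.025) and of 1.93 (SE 0.16, adjusted p = 9.9e-05) without calf 3. Leaving out any 1 bull, with calf 3 kept, ended its call at 2.83 to 2.98. All 3 germ cell genes were near or at 0 in calf 3, the library whose Sertoli and Leydig cell markers were also low, and in all 3 the fold change was larger with that library.

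RBM47 (6:59387155-59710929), a cofactor of cytidine-to-uridine RNA editing that also regulates splicing, was at 4.90, 6.22 and 1.24 FPKM in the calves and 35.0, 31.9 and 34.6 in the bulls. The groups were far apart, with a log2 fold change of 2.93 (SE 0.45, adjusted p = 0.00209) and of 2.41 (SE 0.13) without calf 3. Its entry overlaps NSUN7, which was at 1.01 to 1.94 in the calves and 29.4 to 36.4 in the bulls. RBM4B (29:44692633-44702112), a copy of the splicing regulator RBM4, was at 16.6, 18.3 and 16.3 in the calves and 146, 128 and 150 in the bulls. It rose from rank 37 among the members in calf 1 and calf 2 to rank 4 in the bulls, with a log2 fold change of 2.98 (SE 0.15, adjusted p = 2.31e-05) and of 2.94 without calf 3. Here calf 3 did not differ from the other calves, at 0.933 times their mean. RBM14, a coactivator found in paraspeckles, was at 11.03, 9.75 and 6.02 in the calves and 25.6, 25.7 and 25.9 in the bulls, with a log2 fold change of 1.46 (SE 0.23, adjusted p = 0.00243) and of 1.23 without calf 3, but of 0.85 and no call after quantile normalization. The entry of RBM4 covers RBM14 whole and RBM4B whole, so that the reads of these 3 neighbours may have been divided differently. RBM48, which takes part in the splicing of minor introns, was at 3.80, 4.31 and 2.03 in the calves and 17.8, 7.55 and 14.1 in the bulls, with a log2 fold change of 1.66 (SE 0.37, adjusted p = 0.0106) and of 1.41 (SE 0.33) without calf 3. The highest bull was 2.36 times the lowest, the widest spread of bulls among the members tested, and the gene overlaps an unnamed gene that was at 0.0224 to 0.0572 in the calves and 40.4 to 45.7 in the bulls. RBM34 was at 6.51, 7.62 and 2.68 in the calves and 12.9, 13.1 and 11.4 in the bulls, and was called at 1.11 (SE 0.34, adjusted p = 0.0343) with calf 3, against 0.74 without it, and leaving out calf 1 or any 1 bull also ended its call, at 1.08 to 1.25.

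**Figure D2:**
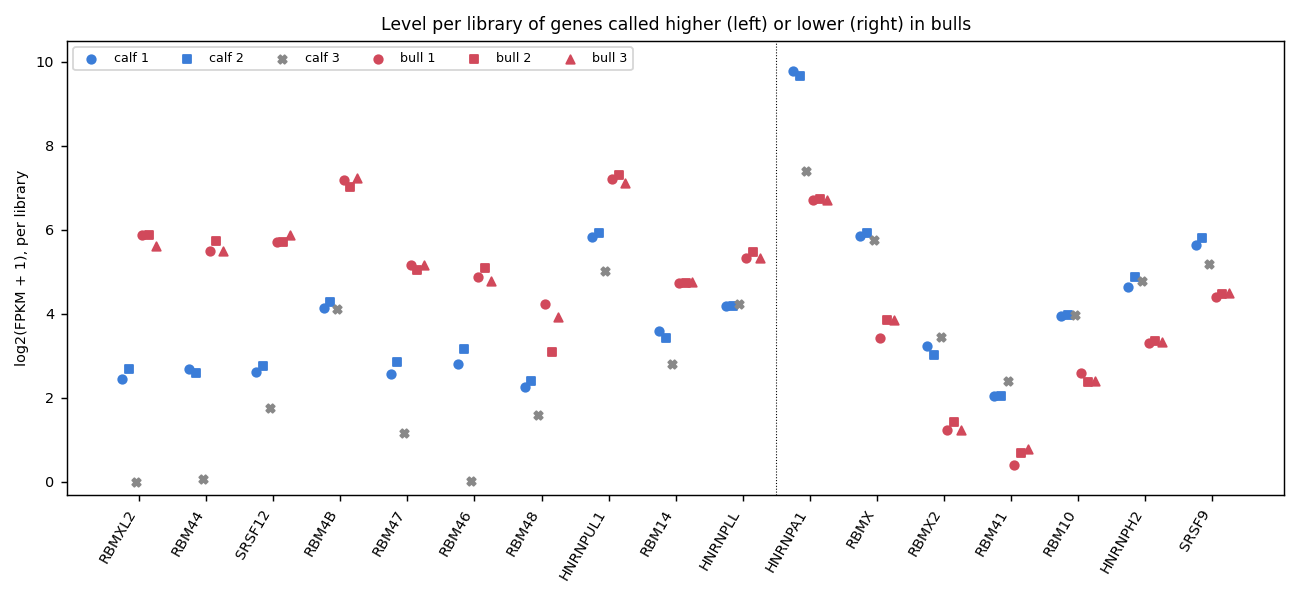
Log2(FPKM + 1) in each library (y axis) of the 10 genes called higher (left of the dotted line) and the 7 called lower in bulls both with all 6 libraries and without calf 3; blue symbols are calf 1 and calf 2, grey crosses calf 3 and red symbols bulls. In every gene the bulls lie on 1 side of all calves, while calf 3 lies near 0 for RBMXL2, RBM44 and RBM46 and between the other calves and the bulls for HNRNPA1.

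The lower RBM genes were RBMX and 3 genes placed on the X chromosome. RBMX, also known as hnRNP G and the source of RBMXL2, was at 56.6, 59.6 and 53.3 FPKM in the calves and 9.79, 13.5 and 13.5 in the bulls. Its log2 fold change was -2.13 (SE 0.17, adjusted p = 0.000153), and -2.17 without calf 3. The table places RBMX on an unplaced scaffold, so it is counted here with neither the X chromosome nor the autosomes. Its chromosome is therefore not shown by these positions, and the counts do not set RBMX apart from the X-linked members. RBMX was also the only member whose locus did not overlap that of its symbol in RefSeq. RBMX2 (X:14358111-14371745), a spliceosome component, was at 8.46, 7.19 and 9.87 in the calves and 1.37, 1.68 and 1.37 in the bulls. RBM41 (X:55642103-55717940), a protein of the minor spliceosome, was at 3.11, 3.11 and 4.27 and at 0.326, 0.615 and 0.724. RBM10 (X:85531597-85557443), a repressor of exon inclusion related to RBM5, was at 14.4, 14.8 and 14.8 and at 5.01, 4.24 and 4.30. In all 3 the bulls were far below the lowest calf, with log2 fold changes of -1.93 (SE 0.18), -1.53 (SE 0.18) and -1.50 (SE 0.15), and of -1.83, -1.41 and -1.50 without calf 3. Calf 3 did not stand below the other calves in any of them, at 1.26, 1.37 and 1.01 times their mean.

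Of the 5 members on the X chromosome, 4 were called lower (HNRNPH2, RBM10, RBM41 and RBMX2) and none higher in both limma fits, with none at an unadjusted p below 0.05 either. Over the 664 X-linked genes tested, 201 (30.3%) were called lower and 151 higher, and over the 17173 autosomal genes 1532 (8.92%) and 6176. Without calf 3 the counts were 209 (31.5%) and 158 on the X chromosome and 2239 and 6546 on the autosomes. Of the 63 autosomal members tested, 2 were called lower (HNRNPA1 and SRSF9) and 12 higher, or 5 and 10 without calf 3. The 5th X-linked member, the cold-inducible RBM3, was at 64.6, 106 and 17.5 FPKM in the calves and 66.3, 55.6 and 72.8 in the bulls, and its groups overlapped, with a log2 fold change of 0.37, or -0.35 without calf 3. RBM43 (2:44857602-44869106) was at 15.7 and 13.8 in calf 1 and calf 2, at 1.55 in calf 3 and at 1.55, 1.89 and 1.66 in the bulls. Calf 3 thus had the level of the bulls, and the gene was called only without it, at -2.55 (SE 0.14, adjusted p = 1.96e-05) against -1.67 (SE 0.73, adjusted p = 0.101) with it.

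Among the RBM genes chosen for their role, the splicing regulators RBM5 and RBM39 were lower in every bull than in every calf by less than the fold required. RBM5, which is known to act in spermatids, was at 43.9, 35.8 and 42.1 FPKM in the calves and 27.7, 29.8 and 26.5 in the bulls, with a log2 fold change of -0.52 (SE 0.15, adjusted p = 0.0265). RBM39, a partner of the U2AF splice site factor, was at 59.2, 56.3 and 44.5 and at 41.2, 34.2 and 28.96, at -0.61 (SE 0.20, adjusted p = 0.0424). RBM8A, a subunit of the exon junction complex, was at 28.96, 29.3 and 38.8 and at 20.3, 16.9 and 23.2, at -0.66 (SE 0.20, adjusted p = 0.0305). RBM38, an RNA-binding target of p53, was at 3.78, 5.36 and 3.57 in the calves and 10.2, 7.33 and 7.55 in the bulls, at 0.84 (SE 0.22, adjusted p = 0.0191). Without calf 3 the log2 fold changes of these 4 were -0.49, -0.73, -0.52 and 0.75, and after quantile normalization RBM5, RBM39 and RBM8A were called lower, at -1.25, -1.37 and -1.35. RBM38 was then at 0.33 (limma adjusted p = 0.238) and was not called. RBM24, a relative of RBM38 known from muscle, stayed at 0.921 to 1.89 in all libraries. RBM20, the regulator of titin splicing in heart, was at 3.69, 5.77 and 0.0929 in the calves and 4.12, 5.13 and 4.22 in the bulls, and was called in neither fit (0.75, and -0.04 without calf 3). Transcripts named as antisense to RBM20 are summed into its gene value, and they made up 1.51%, 0.419% and 23.6% of it in the calves and 30.2%, 45.3% and 49.7% in the bulls. The remaining transcripts of RBM20 summed to 3.63, 5.75 and 0.0710 in the calves and 2.87, 2.80 and 2.12 in the bulls. Such antisense entries occurred in 11 members, and in 5 of them they passed 5% of the gene in at least 1 library.

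Of the 47 members called in neither fit, 24 had an adjusted p below 0.05 without calf 3, 7 of them higher and 17 lower in bulls, with log2 fold changes from -0.83 (SRSF10) to 0.90 (RBM26) in that fit. Over all genes, 75.8% passed this p at any fold change. Among the higher ones RBM26 was at 19.0, 19.5 and 18.3 FPKM in the calves and 37.5, 37.9 and 34.8 in the bulls, and RBM15, a subunit of the RNA methylation complex, at 14.7, 14.5 and 10.6 and at 25.5, 26.5 and 27.3. Their groups did not overlap, with log2 fold changes of 0.92 and 0.96 with all libraries. After quantile normalization the values were 0.19 and 0.30 (limma adjusted p = 0.294 and 0.230), and neither gene was called. These 2 were chosen after their values were seen, and RBM15 was called without calf 1 (1.03) or without calf 2 (1.02). In 17 members calf 3 was at 0.5 times or less of the mean of calf 1 and calf 2, which was so in 29.1% of all genes tested.

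Many members form pairs of related genes, and the ratio of 2 such genes within a library shows whether they changed unequally. The log2 ratio of FPKM + 1 was compared between calves and bulls for 16 pairs with a two-sided exact permutation test over the 20 possible labelings, whose smallest p is 0.1 (0.133 after adjustment), so no pair could pass 0.05. RBMXL2 over RBMX was at -3.39, -3.23 and -5.76 in the calves and 2.45, 2.01 and 1.77 in the bulls, a difference of 6.21, and of 5.39 without calf 3. The retroposed copy was thus below its source in every calf and above it in every bull. SRSF12 over SRSF10 was at -3.43, -3.27 and -2.32 in the calves and 0.60, 0.38 and 0.69 in the bulls, a difference of 3.56. RBM4B over RBM4 was at 0.53, 0.66 and 0.99 and at 3.92, 3.72 and 4.13, a difference of 3.20. HNRNPUL1 over HNRNPU was at -1.05, -1.17 and -1.68 and at 0.58, 0.67 and 0.59, a difference of 1.91. In these 4 pairs p was the smallest the design allows, and without calf 3 the differences were 5.39, 3.90, 3.33 and 1.73. Most of the 16 pairs reached this p (0.1, exact), among them RBM27 over RBM26 with a difference of -0.16. It thus does not mark out these 4.

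The X-linked HNRNPH2 over HNRNPH1 was at -2.38, -2.21 and -1.85 in the calves and -3.34, -3.31 and -3.38 in the bulls, a difference of -1.20 (p = 0.1, exact), and of -1.05 without calf 3. HNRNPA2B1 over HNRNPA1 was at -2.41 and -2.30 in calf 1 and calf 2, at 0.40 in calf 3 and at -0.04, -0.04 and 0.10 in the bulls. Calf 3 lay above the bulls and the other calves far below them, so the difference was 1.45 with p = 0.4 in the exact test, and 2.37 without calf 3. SRSF9 over SRSF1 and HNRNPDL over HNRNPD each had a difference of -0.71 (p = 0.1, exact), and SRSF6 over SRSF4 one of -0.53 (p = 0.2, exact). Without calf 3 these differences were -0.82, -0.83 and -0.73. RBM6 over RBM5 differed by 0.02 (p = 0.7, exact), and by -0.09 without calf 3. RBM47 over RBM46, both higher in bulls, was at -0.24 and -0.31 in calf 1 and calf 2, at 1.13 in calf 3 and at 0.30, -0.05 and 0.38 in the bulls. With calf 3 above the bulls the difference was 0.01 (p = 1, exact), and without it 0.48. Reads of related genes such as RBM4 and RBM4B, HNRNPH1 and HNRNPH2, or RBMX and RBMXL2 may have been divided between them with error.

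**Figure D3:**
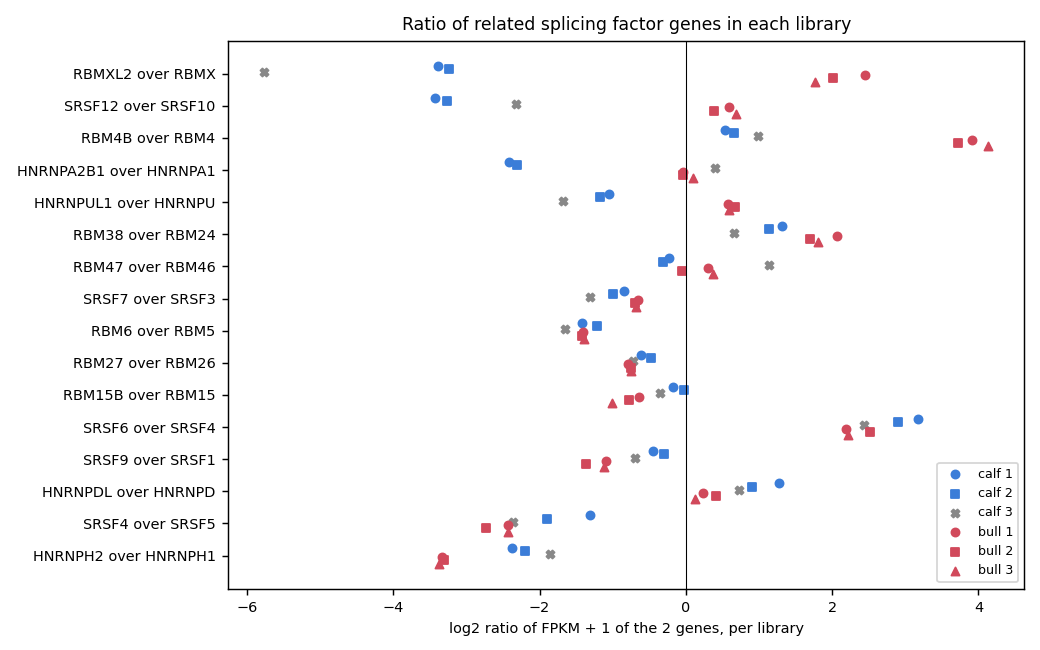
Log2 ratio of FPKM + 1 of 2 related genes in each library (x axis), 1 line per pair, with blue symbols for calf 1 and calf 2, grey crosses for calf 3 and red symbols for bulls; the vertical line marks equal levels. RBMXL2 over RBMX, SRSF12 over SRSF10 and HNRNPUL1 over HNRNPU lie left of the line in every calf and right of it in every bull.

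In the order of levels, the members highest in the bulls were HNRNPF, HNRNPK, HNRNPUL1 and RBM4B, with means of 192, 163, 148 and 141 FPKM. In calf 1 and calf 2 they were HNRNPA1, HNRNPK, HNRNPA2B1 and HNRNPH1, with means of 842, 207, 163 and 131. HNRNPK was 2nd in both, and the ranges of HNRNPUL1 and RBM4B overlapped in the bulls. The summed RBM level was 619, 677 and 480 FPKM in the calves and 862, 813 and 827 in the bulls, and without RBM4B it was 602, 658 and 463 against 716, 685 and 677.

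The transcript table lists 254 entries for the 70 genes, of which 128 carry an Ensembl identifier and 126 were assembled from these libraries. Of the 144 that were tested, 22 were called higher in bulls and 20 lower (34.8% and 9.37% of the 23212 transcripts tested), or 20 and 24 without calf 3 (36.1% and 13.1%). After quantile normalization 14 were higher and 45 lower (21.6% and 25.3% of all transcripts), and after rescaling to a common sum 26 and 15 (37.8% and 6.01%). By family, 2 were higher and 3 lower in SRSF, 4 and 8 in HNRNP, and 16 and 9 in RBM. In 36 genes more than 1 transcript was tested, and RBM7 was the only one with calls in opposite directions, in both fits.

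RBM7 belongs to a complex that brings nuclear transcripts to the RNA exosome. As a gene it was at 14.3, 17.0 and 7.33 FPKM in the calves and 16.7, 15.4 and 16.0 in the bulls and was not called. Its annotated transcript RBM7-201 made up 84.2%, 87.8% and 79.0% of this level in the calves and 0.631%, 2.34% and 0.526% in the bulls. The assembled transcript TCONS_00091672 made up 5.02%, 5.46% and 1.95% in the calves and 78.3%, 59.6% and 75.1% in the bulls. A further assembled transcript, TCONS_00091673, went from 3.62%, 2.77% and 7.91% to 20.1%, 34.3% and 19.2%. In the values as listed, the gene level thus hid an almost complete exchange between transcript entries. RBM7-201 fell by 3.25 (SE 0.36, adjusted p = 0.000554) on the log2 scale and TCONS_00091672 rose by 2.98 (SE 0.27, adjusted p = 0.000276). Without calf 3 the log2 fold changes were -3.61 and 2.76. TCONS_00091672 (15:24919766-24927867) starts upstream of RBM7-201 (15:24920578-24927867) and spans the whole entry of C15H11orf71 (15:24919805-24920623), which was at 1.87 to 3.29 FPKM in the calves and 216 to 252 in the bulls. How reads were divided between these entries was not tested, so the exchange is described for the listed values only.

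Other genes also shifted between entries, and 11 members had a transcript whose mean share differed by at least 20 percentage points between calf 1 and calf 2 and the bulls. SRSF12-201, the annotated transcript of SRSF12, made up 41.9%, 28.1% and 27.4% of the gene in the calves and 85.9%, 87.6% and 90.2% in the bulls, and its log2 fold change was 4.32 (SE 0.27, adjusted p = 6.95e-05), above the 3.38 of the gene, and 4.06 without calf 3. In the calves the remainder was spread over assembled entries, some named as overlapping or antisense transcripts. In SRSF6 the assembled entry TCONS_00070483 made up 81.7%, 57.2% and 88.0% in the calves and 37.2%, 37.7% and 42.4% in the bulls and fell by 1.81 (SE 0.20, adjusted p = 0.000635) on the log2 scale with calf 3 and without it, while SRSF6-202 was at 3.96, 17.5 and 2.49 FPKM in the calves and 10.6, 14.2 and 11.6 in the bulls and was not called. RBM10 and RBM48 showed how far single libraries can move such shares. RBM10-201 made up 83.6%, 89.3% and 84.8% of RBM10 in the calves but 83.2%, 55.9% and 4.92% in bulls 1 to 3, and RBM10-202 made up 89.0% in bull 3 against 14.2% and 13.0% in the other bulls. RBM48-201 was listed at 0 in bull 2 and made up 96.7% and 93.9% of RBM48 in bull 1 and bull 3. The bulls thus did not agree among themselves on the transcripts of these 2 genes.

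**Figure D4:**
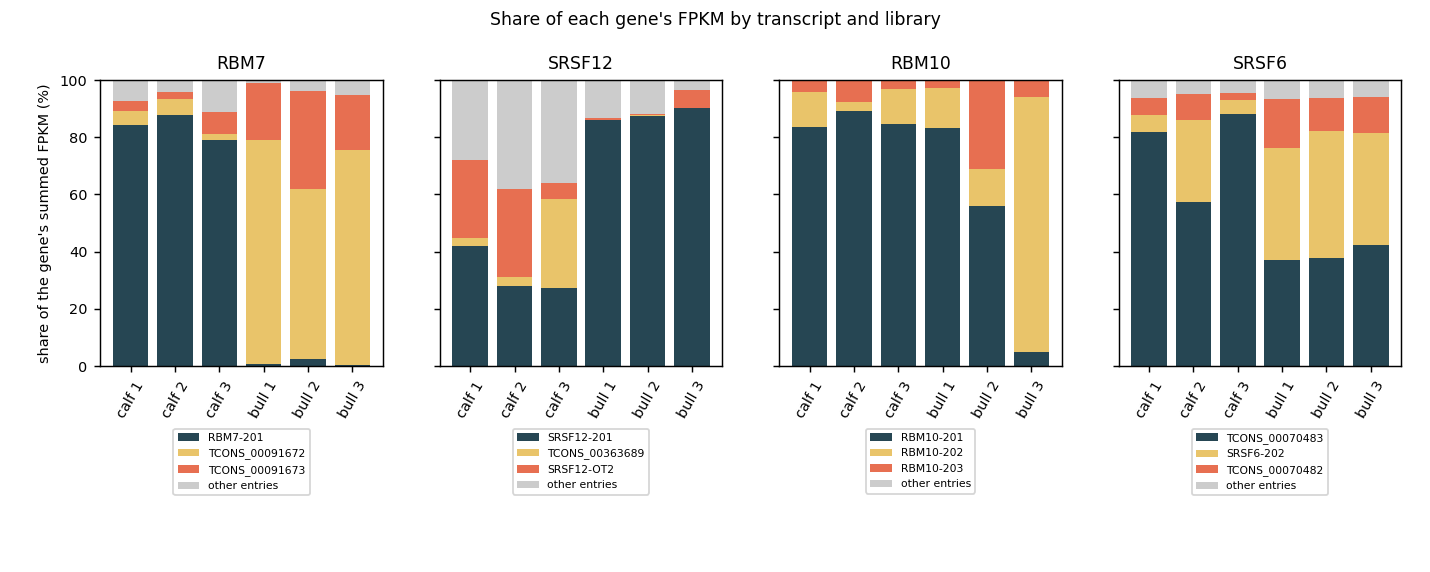
Share of the summed FPKM of each gene (y axis, percent) held by its 3 leading transcript entries and by all others, in each library, for RBM7, SRSF12, RBM10 and SRSF6. RBM7-201 fills 79.0% or more of each calf bar and 2.34% or less of each bull bar, while the bars of RBM10 differ among the bulls, with RBM10-201 at 83.2%, 55.9% and 4.92%.

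Genes that work with these families were read from 3 lists. SR proteins are switched by phosphorylation, through the SRPK kinases in the cytoplasm and the CLK kinases in the nucleus. Of the 16 SR protein partners and kinases tested, 4 were called higher (SRPK1, SRPK2, CLK3 and CLK4) and 2 lower (CLK1 and SREK1), against 35.7% and 9.61% of all genes. The same 6 were called without calf 3 (37.9% and 13.6%), and the median log2 fold change was -0.06 with it. SRPK1 was at 21.5, 20.4 and 15.3 FPKM in the calves and 262, 250 and 225 in the bulls, with a log2 fold change of 3.63 (SE 0.18, adjusted p = 2.69e-05). SRPK2 was at 54.8, 69.9 and 61.3 and at 206, 218 and 213, with 1.77 (SE 0.17, adjusted p = 0.000287). CLK1 was at 77.3, 45.0 and 41.6 in the calves and 13.7, 16.1 and 20.6 in the bulls, and fell by 1.61 (SE 0.29, adjusted p = 0.00423) on the log2 scale. Without calf 3 the log2 fold changes of these 3 kinases were 3.49, 1.76 and -1.77.

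Of the 44 core spliceosome genes tested, 7 were called higher by limma and none lower (35.7% and 9.61% of all genes), or 4 and none without calf 3 (37.9% and 13.6%). At an unadjusted p below 0.05 and any fold change, 13 were higher and 3 lower with all 6 libraries, and 15 and 6 without calf 3. After quantile normalization none was called higher (3 at an unadjusted p below 0.05) and 5 were lower (21.1% and 25.1% of all genes). SNRPC, a protein of the snRNP that recognizes the splice donor, was at 3.06, 32.4 and 3.13 FPKM in the calves and 59.2, 60.9 and 52.4 in the bulls, so that calf 2 stood apart from the other calves. SNRPD2, a member of the Sm ring, was at 43.6, 49.5 and 19.9 and at 98.9, 109 and 97.8, and SF3A1, which helps to recognize the branch point, at 9.11, 10.998 and 10.2 and at 31.4, 25.8 and 32.2. Their log2 fold changes were 2.82 (SE 0.84), 1.51 (SE 0.35) and 1.47 (SE 0.16), and 2.32, 1.11 and 1.48 without calf 3. After quantile normalization none of these 3 was called. The median over the list was 0.29, and 0.11 without calf 3.

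Of the 21 tissue splicing regulators tested outside the families, 3 were called higher and 2 lower (35.7% and 9.61% of all genes), or 4 and 2 without calf 3 (37.9% and 13.6%), with a median log2 fold change of 0.04. KHDRBS3, a STAR protein abundant in testis and brain, was at 7.51, 9.77 and 12.4 FPKM in the calves and 213, 218 and 211 in the bulls, with a log2 fold change of 4.33 (SE 0.20, adjusted p = 1.9e-05), and of 4.49 without calf 3. NOVA2, best known from neurons, was at 0.386 and 0.486 in calf 1 and calf 2, at 5.35 in calf 3 and at 8.87, 24.2 and 15.4 in the bulls, and CELF6 was at 0.871, 1.03 and 1.98 and at 8.45, 10.1 and 8.49. Their log2 fold changes were 2.76 and 2.15, and 3.48 and 2.36 without calf 3. MBNL2, a muscleblind regulator, was at 14.6, 17.9 and 27.6 in the calves and 5.69, 6.65 and 7.37 in the bulls, and TIA1, which promotes the use of weak splice donors, at 38.9, 31.5 and 33.5 and at 10.1, 12.4 and 11.9. The log2 fold changes of these 2 were -1.44 (SE 0.26) and -1.51 (SE 0.16), and -1.19 and -1.53 without calf 3. Of the 30 genes of this list with values, tested or not, 13 were highest in calf 3, the library with high brain markers.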

How the data were processed

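FPKM values of genes and transcripts were deposited by the authors, with no read counts per gene. The study states the reads sequenced per library, which were not used here, and the reads behind each FPKM value are not known, so no counting interval is given. Per the Methods, the authors filtered reads, removed ribosomal reads with Bowtie2, mapped with TopHat2 and assembled with StringTie. The Methods describe FPKM, Cuffdiff and edgeR for circular RNAs, and the paper's Results also name Ballgown. Which of them made the gene and transcript values is not given in the sources used here. The sums of FPKM ran from 587066 (calf 3) to 1098720 (calf 2), so libraries were not rescaled to a common total. UMD3.1.1 is the assembly given in the Methods, but the loci in the table overlap those of RefSeq's ARS-UCD2.0 in 99.6% of 16361 shared symbols. Of the 70 members, 69 overlapped, and the exception was RBMX. Positions are those of the table. In all 70 members the gene value was the sum of its transcripts (tolerance 0.001). Further members also overlap entries of other genes, among them HNRNPA2B1 with CBX3 and SRSF10 with PNRC2. How reads were divided between such entries was not tested in any of them.

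Genes and transcripts at 1 FPKM or more in at least 3 of 6 libraries were fitted on log2(FPKM + 1) with limma 3.58.1 (R 4.3.3; empirical Bayes with trend, two-sided, Benjamini-Hochberg over all features tested). Fold changes on this scale understate those of low genes. Features were called at an adjusted p below 0.05 and a fold change of 2 or more. Groups were taken from the sample labels, with each library a separate animal, and no column was left unused. Alternatives were a pseudocount of 0.1, no filter, quantile normalization, rescaling to a common sum (TPM), array weights, a replicate block and leaving out each library. Quantile normalization without calf 3 was added after seeing the data. The procedure was tested on simulated data whose spread was taken from calf 1, calf 2 and the bulls. A library as far from its group as calf 3 was not part of that test.

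Values per library were given for members called in both fits, at most 8 a direction by size and the further ones called. Members chosen for their role, those called in only 1 fit and related pairs with differing calls were given too. So were transcripts with opposite calls, the 5 largest changes of a transcript's share, and at most 3 genes a pathway list by size. MBNL2 and TIA1 were given beyond the 3 of their list. RBM26, RBM15, SREK1, CLK3, CLK4, RBM48-201, TCONS_00091673, TCONS_00070483 and SRSF6-202 were named after their values were seen. Members, lists and this rule were chosen with earlier results of these data known. 1 gene of the HNRNP family is not reported here. Plots were drawn with matplotlib 3.10.9.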

Additional observations from a re-analysis of the deposited data

How the results depend on the processing

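The limits are those of 3 animals a group, of FPKM values without counts, and of a calf library whose markers go against its label. Of the members called with all 6 libraries, 5 of 12 higher (RBM44, RBM47, RBM4B, RBMXL2 and SRSF12) and 5 of 7 lower (HNRNPH2, RBM10, RBM41, RBMX and RBMX2) kept their call in all 13 alternatives. HNRNPA1 lost its call in 5, each leaving out a library other than calf 3, with log2 fold changes over all alternatives from -3.00 to -1.81. RBM46 lost it in 4, at 1.33 to 4.01 over all alternatives, and SRSF9 in 2, at -2.01 to -0.88. HNRNPF lost it in 10 and RBM34 in 9.

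Quantile normalization before the limma fit gave 7 members higher and 24 lower (SRSF 1 and 3, HNRNP 0, with 2 at an unadjusted p below 0.05, and 8, RBM 6 and 13), a median of -0.63, 14 transcripts higher and 45 lower, and in the lists 0 and 5 core spliceosome genes, 2 and 4 SR protein partners and 3 and 6 tissue regulators. Without calf 3 as well, it gave 6 and 26 members (SRSF 1 and 4, HNRNP 0 and 10, RBM 5 and 12), a median of -0.80, 13 and 52 transcripts, and 0 and 7, 2 and 5, and 4 and 6 in the lists, and RBM3 (-1.11) and HNRNPAB (-1.07) were called lower against a positive value with all 6 libraries. Called or not, the sign differed from that with all 6 libraries in 18 of 69 members there, in 15 after quantile normalization and in 6 without calf 3. TPM scaling gave 18 and 6 members, 3 and 0 SRSF genes, 1 SR protein partner and 1 tissue regulator lower, and a median of 0.18. Array weights gave 10 members in each direction, 2 SRSF genes lower, 4 core spliceosome genes higher and a median of -0.14. The cause of these changes was not tested.

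Leaving out 1 library gave 9 to 13 members higher and 5 to 10 lower, 0 to 2 SRSF and 1 to 3 HNRNP genes lower, 4 to 8 core spliceosome genes higher, 1 to 2 SR protein partners lower, and medians from -0.14 (without calf 3) to 0.16 (without calf 2). Without the filter the median of the members lay 0.096 below that of all genes, in place of 0.40. Without filter or with a pseudocount of 0.1, 10 and 12 members were higher and 7 lower in each. Deviations of animals with the same number correlated only weakly, at 0.03, 0.02 and 0.03. With 3 animals a group this cannot exclude that the numbers pair them. A replicate block gave 11 members higher and 7 lower.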
